A study of Bos taurus with 6 samples.

Results

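The expression of 9 interferon-stimulated genes was examined in longissimus thoracis (LT) muscle of Korean cattle (Hanwoo) steers. They were taken by name as a fixed list of ISG15, MX1, MX2, IFI6, IFI44, RSAD2, STAT2, IRF7 and IRF9, out of 23015 gene rows in the count tables, and each of the 9 had 1 row. The number of fine marbling particles (NFMP) separated 3 high-NFMP steers (3-8, 10-8 and 10-9, aged 32.5 to 34.5 months) from 3 low-NFMP steers (3-1, 3-3 and 10-16, aged 33.7 to 37.8 months), with 1 library per steer. All were castrated males of 1 breed on commercial feed with no treatment, so the comparison is between animals picked for a high or low value of a carcass trait, and age differs between the groups. The libraries came from a 3′ mRNA kit, which is meant to gather reads near the poly(A) tail, so counts were not divided by length. Where the reads lay on the transcripts was not examined, and an effect of transcript length on the counts was not tested.

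Interferons are secreted proteins that warn neighbouring cells of viral infection. A type I interferon binds the receptor pair IFNAR1 and IFNAR2, the kinases JAK1 and TYK2 then phosphorylate STAT2, and this acts with IRF9 in the factor ISGF3, which switches on the interferon-stimulated genes. The products block viral replication at several steps, and in uninfected muscle most of them are kept at a low level. STAT2 and IRF9 are parts of that factor, IRF7 amplifies interferon production, MX1 and MX2 are antiviral GTPases, RSAD2 (viperin) is an antiviral radical SAM enzyme, ISG15 is a ubiquitin-like modifier, IFI6 is a small membrane protein induced by interferon, and IFI44 is an induced cytoplasmic protein.

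None of the 9 genes was called between the high- and low-NFMP groups. Values are normalized counts, that is, reads per gene scaled to the mean effective library size with TMM (trimmed mean of M-values) factors. A gene was called where edgeR's quasi-likelihood test gave p below 0.05 before adjustment and the groups differed more than 2-fold in either direction, which are the study's own thresholds, and a Benjamini-Hochberg adjusted p below 0.05 over all tested genes was used as a stricter rule. By the first rule 3.9% of all 15039 tested genes were called, by the stricter rule 0.685%. The filter on low counts kept 5 of the 9 (MX1, IFI6, RSAD2, STAT2 and IRF9), and 0 of these 5 were called by either rule, with 0 at an unadjusted p below 0.05 in edgeR, which 11.5% of all tested genes had, and 0 in DESeq2. The other 4 (ISG15, MX2, IFI44 and IRF7) never exceeded 15 reads in a library and were not tested.

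Together the 9 genes held between 16.01 and 30.15 CPM (counts-per-million, scaled by the library total), 269 to 518 reads of libraries with 16283873 to 17192750 counted reads. By mean over the 6 libraries the order was IRF9 (111.7), MX1 (106.0), STAT2 (92.5), IFI6 (49.3), RSAD2 (17.1), IFI44 (6.83), ISG15 (2.74), IRF7 (2.46) and MX2 (1.49 normalized counts). IRF9, MX1 and STAT2 could not be ordered against each other, because their library values overlapped, and the same held for ISG15, IRF7 and MX2. The other neighbours in this order overlapped too. In steer 10-8 IFI6 (77.8) lay above STAT2 (67.8), and in steer 10-16 IFI44 (1.01) lay below ISG15 (2.02). IRF9 lay above 63.7% of all gene rows, IFI6 above 52.6%, RSAD2 above 40.4% and ISG15 above 22.5%. The tissue label was in keeping with the muscle genes ACTA1, CKM, MB, TTN, MYH1, MYH2 and MYH7, which summed to between 1661000 and 2080000 normalized counts in every library.

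**Figure D1:**
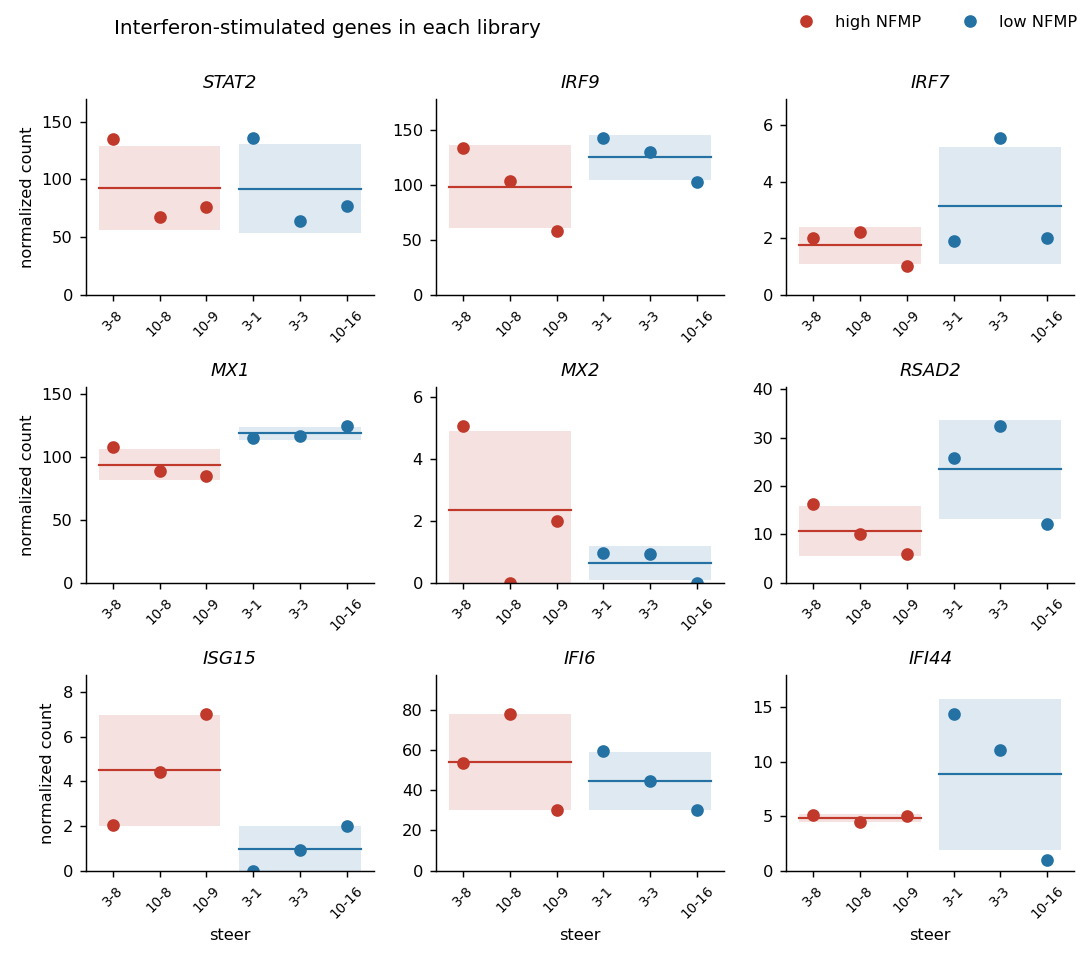
Normalized counts (y axis, from 0, a scale of its own in each panel) of the 9 genes in each of the 6 steers (x axis). Points are single libraries, lines are group means and shaded bands are ± 1 SD (n = 3). The groups are apart for MX1 alone among the tested genes, and ISG15, MX2, IRF7 and IFI44 stay below 15 normalized counts throughout.

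STAT2, the DNA-bound signal transducer of type I interferon, was counted 133, 61 and 76 times in steers 3-8, 10-8 and 10-9 (high NFMP) and 142, 69 and 76 times in steers 3-1, 3-3 and 10-16 (low NFMP). One steer of each group, 3-8 and 3-1, stood near 135 normalized counts and the other 4 between 63.9 and 76.7, so the groups overlapped almost entirely. The means were 92.9 ± 36.5 (SD, n = 3) and 92.2 ± 38.4 (SD, n = 3), and the log2 fold change (log2FC, high minus low, given with its standard error, SE) was 0.01 (SE 0.35, 95% interval -0.74 to 0.77, adjusted p = 0.993 by edgeR). The sign of this difference turned with the scaling and with the steer left out, from -0.36 without steer 3-8 to 0.40 without steer 3-1. In the gene models of RefSeq on ARS-UCD2.0 STAT2 overlaps IL23A, the subunit of interleukin 23, which had 153.0, 105.6 and 108.3 normalized counts in the high-NFMP steers and 134.9, 112.9 and 102.0 in the low-NFMP steers. IL23A was also highest in steers 3-8 and 3-1, and how many reads were counted on both genes was not measured.

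IRF9, which gives ISGF3 its DNA recognition, was counted 132, 93 and 58 times in high-NFMP and 149, 140 and 102 times in low-NFMP steers. Steer 10-9 was the lowest, at 58.2 normalized counts, and the other 5 lay between 103.0 and 142.6, so the groups overlapped. The means were 98.4 ± 38.0 (SD, n = 3) and 125.0 ± 20.2 (SD, n = 3). The log2FC was -0.35 (SE 0.31, 95% interval -1.004 to 0.312, adjusted p = 0.70 by edgeR), and without steer 10-9 it was -0.06. The ubiquitin ligase gene RNF31 overlaps IRF9 in these gene models and ran the other way in steer 10-9, where it was at its highest, 259.8 normalized counts against 137.8 to 205.6 in the other 5.

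IRF7, a factor that interferon itself induces and that then drives further interferon genes, was counted 2, 2 and 1 times in high-NFMP and 2, 6 and 2 times in low-NFMP steers. Exact Poisson 95% intervals, which cover counting error only, ran from 0.242 to 7.22 for a count of 2 and from 2.20 to 13.1 for the count of 6, so no difference between the libraries was detectable at this depth.

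MX1 was the least variable of the 5 tested genes. It was counted 106, 80 and 84 times in high-NFMP and 120, 126 and 123 times in low-NFMP steers. After normalization the high-NFMP steers lay between 84.2 and 107.4 and the low-NFMP steers between 114.8 and 124.2, without overlap. Such a separation was found for 17.1% of all tested genes, and here for 1 of 5. The means were 93.5 ± 12.3 (SD, n = 3) and 118.5 ± 4.97 (SD, n = 3), and the log2FC was -0.34 (SE 0.25, 95% interval -0.88 to 0.20, adjusted p = 0.645 by edgeR). With 3 steers a side, the smallest two-sided p of an exact permutation test is 0.1. The interval lay within a fold change of 2 in either direction, as it did for STAT2, the other of the 2 genes for which this was so.

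MX2, the neighbour and relative of MX1, was nearly absent from the counts, with 5, 0 and 2 reads in the high-NFMP steers and 1, 1 and 0 in the low-NFMP steers. A count of 0 allows up to 3 reads, or 0.198 and 0.18 CPM on the TMM-scaled totals of steers 10-8 and 10-16. This limit of 3 was used for every count of 0, and the two-sided Poisson interval given for other low counts would reach 3.69. Whether reads that align to both MX genes were counted is not settled by the sources used here, so the split between the pair is uncertain.

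RSAD2 had the largest difference of the 5 tested genes. Its counts were 16, 9 and 6 in the high-NFMP steers and 27, 35 and 12 in the low-NFMP steers. The low-NFMP steer 10-16, at 12.1 normalized counts, lay below the high-NFMP steer 3-8 at 16.2, so the groups overlapped. The means were 10.7 ± 5.14 (SD, n = 3) and 23.5 ± 10.3 (SD, n = 3), a log2FC of -1.12 (SE 0.56, 95% interval -2.31 to 0.07, unadjusted p = 0.064 and adjusted p = 0.47 by edgeR). The gene crossed the p and fold change threshold in 4 of 13 alternative fits. Its log2FC there was -1.55 without steer 3-8, -1.40 without steer 10-16, -1.15 with no filter on low counts and -1.12 with quantile normalization and limma. The smallest differences were -0.73 with the label number as a term, -0.82 without steer 3-3 and -0.82 without steer 10-9. RSAD2 had an adjusted p between 0.298 and 0.756 in the 13. It had too few reads for the filter of 10 counts in every library.

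CMPK2, the mitochondrial nucleotide kinase whose gene follows RSAD2 in these gene models and which interferon induces with it, was named after its values were seen. It had 123.6, 112.2 and 91.3 normalized counts in the high-NFMP steers and 79.4, 63.9 and 72.7 in the low-NFMP steers. All high-NFMP values were above all low-NFMP values, with a log2FC of 0.60 (SE 0.27, adjusted p = 0.426 by edgeR). The point estimates of the adjacent genes thus had opposite signs, and neither gene was called.

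ISG15, which is conjugated to other proteins in the interferon response, was counted 2, 4 and 7 times in high-NFMP and 0, 1 and 2 times in low-NFMP steers. Steers 3-8 and 10-16 both had 2 reads, and the count of 7 in steer 10-9 has an interval of 2.81 to 14.4. With no filter on low counts the log2FC was 2.07 (SE 1.30, adjusted p = 0.644 by edgeR), which rests on 13 reads against 3.

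IFI6 was counted 53, 70 and 30 times in high-NFMP and 62, 48 and 30 times in low-NFMP steers. The range of the low-NFMP group, 30.3 to 59.3 normalized counts, lay inside that of the high-NFMP group, 30.1 to 77.8. The means were 53.9 ± 23.9 (SD, n = 3) and 44.7 ± 14.5 (SD, n = 3), with a log2FC of 0.26 (SE 0.41, 95% interval -0.61 to 1.14, adjusted p = 0.837 by edgeR). Without steer 10-8 the value was -0.07.

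IFI44 was counted 5, 4 and 5 times in high-NFMP and 15, 12 and 1 times in low-NFMP steers. The highest and the lowest library were both of the low-NFMP group. Its neighbour and relative IFI44L, a further induced gene, had 4 to 10 reads in every library.

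**Figure D2:**
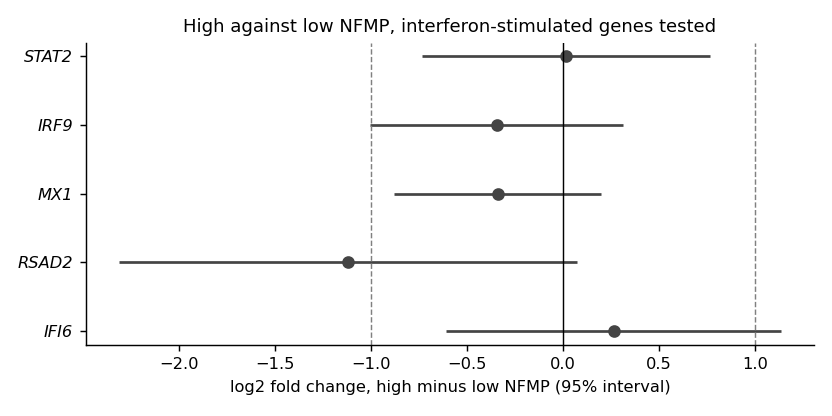
Log2 fold change of the 5 tested genes (x axis, high minus low NFMP), with points for the edgeR estimate and bars for the 95% interval. Solid and dashed lines mark no change and a fold change of 2 in either direction. All 5 intervals include 0, and that of RSAD2 is the widest, -2.31 to 0.07.

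The spread between steers differed among these genes. In the 5 tested genes the highest library exceeded the lowest 1.47 times for MX1, 2.13 times for STAT2, 2.45 times for IRF9, 2.59 times for IFI6 and 5.38 times for RSAD2. The median was 2.45, against 1.94 for the 14964 tested genes counted in every library. The median within-group SD of log2 CPM was 0.538 for the 5 genes and 0.327 for all tested genes, although rarer genes vary more by counting alone and the 5 had means of 17.1 to 111.7, against a median of 144 over all tested genes. Against the trend that edgeR fits at the same abundance, the biological coefficient of variation was 21.9% for MX1 (trend 25.7%), 30.1% for STAT2 (26.8%), 26.5% for IRF9 (25.5%), 33.8% for IFI6 (32.5%) and 40.0% for RSAD2 (39.8%). MX1 lay below the trend and the other 4 above it, RSAD2 by the least. The share of all tested genes above their trend was not counted, so the 5 are not ranked against other genes here. Since edgeR moves each gene towards the trend, the distances are smaller than in the counts themselves. Within groups the SD as a percent of the mean was 13.1% (high NFMP) and 4.19% (low NFMP) for MX1, and 39.3% and 41.7% for STAT2.

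Steers 3-8 and 3-1 were above the mean of the 6 libraries in log2 CPM in all 5 tested genes, and no steer was the highest in all 5. Steer 3-1 was the highest in STAT2 and IRF9, 3-3 in RSAD2, 10-8 in IFI6 and 10-16 in MX1. Steer 10-9 was the lowest in 4 of the 5 and 3-3 in STAT2. The sum over the 5 genes was 445.9, 347.8 and 254.7 normalized counts in the high-NFMP steers and 478.4, 386.8 and 346.3 in the low-NFMP steers, or 349.5 ± 95.6 (SD, n = 3) against 403.8 ± 67.7 (SD, n = 3), and the groups overlapped.

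The sums were apart by the number that opens the steer label, whose meaning the sources used here do not give. The 3 steers labelled 3 (3-8, 3-1 and 3-3) had 445.9, 478.4 and 386.8, and the 3 labelled 10 had 347.8, 254.7 and 346.3. Label and group are not balanced, as 3-1 and 3-3 are low NFMP while 10-8 and 10-9 are high NFMP. IRF9 had 133.8, 142.6 and 129.6 normalized counts in steers labelled 3, all above the 103.3, 58.2 and 103.0 of steers labelled 10. RSAD2 had 16.2, 25.8 and 32.4 against 10.0, 6.02 and 12.1, likewise apart. This separation held for 2 of the 5 genes and for 14.1% of all tested genes. In a fit with both the label number and the NFMP group, the log2 difference by label (label 3 minus label 10), taken up after these values were seen, was 1.14 for RSAD2 (SE 0.54, adjusted p = 0.746 by edgeR), 0.64 for STAT2 (SE 0.33) and 0.57 for IRF9 (SE 0.29), the last 2 at an adjusted p of 0.751. It was 0.37 for IFI6 (SE 0.46) and 0.10 for MX1 (SE 0.26). None of the 5 genes was called for the label number, and 1.54% of all tested genes were. In that fit the NFMP difference of RSAD2 was -0.73, that of IRF9 -0.19, that of MX1 -0.31, that of IFI6 0.42 and that of STAT2 0.18.

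**Figure D3:**
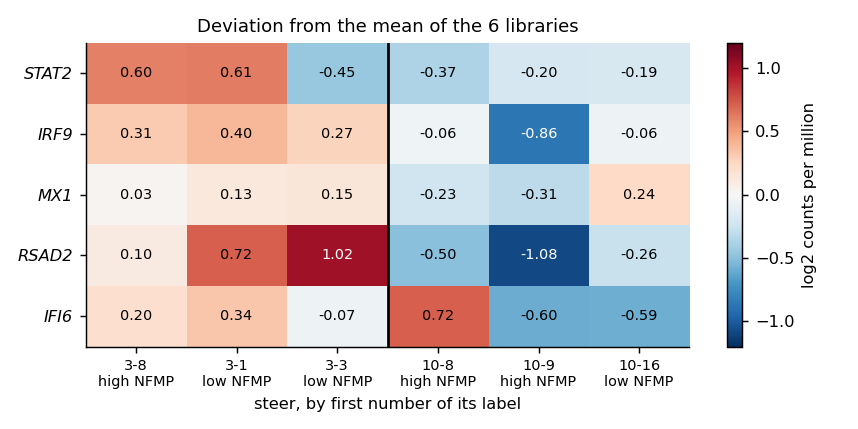
Deviation of each steer (columns, ordered by the first number of the label, with the NFMP group below) from the mean of the 6 libraries in log2 CPM, for the 5 tested genes (rows). Red is above and blue below the mean. IRF9 and RSAD2 are above their means in all 3 steers labelled 3 and below in all 3 labelled 10, and steer 10-9 is at -1.08 for RSAD2 and -0.86 for IRF9.

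Genes with a like profile were sought by the Pearson r of each gene with the mean standardized profile of the 5 genes over the 6 libraries, as a description. Among the 10865 other tested genes with a mean of 50 or more normalized counts the closest were PAK2 (0.997), SWT1 (0.993), ZHX3 (0.987), FAF2 (0.984) and LOC112442647 (0.982). The 5 genes are part of that mean, which raises their own r. It was highest for IRF9 (0.979), a value that 7 of the 10865 reached, and lowest for STAT2 (0.608) and IFI6 (0.542). Within the interferon pathway lists the closest were ADAR, the RNA editing enzyme (0.979), EPSTI1 (0.897), PIAS1 (0.887), NMI (0.857) and ARIH1 (0.834).

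The rest of the pathway was followed in 8 lists with 168 genes, of which 141 had a row and 114 passed the filter. Of these 114, 1 was higher and 2 were lower by the p and fold change rule (2.63%, against 3.9% of all tested genes), 0 had an adjusted p below 0.05 by edgeR and 13 had an unadjusted p below 0.05, close to the share of 11.5% over all tested genes. DESeq2 gave 3 of the 114, STAT3, LGALS3BP and GBP4, an adjusted p below 0.05, and 1.91% of all tested genes. The median log2FC of the 114 was 0.10, and that of all tested genes was 0.02. Of the 114, 46 had a log2FC below 0, as had 48.1% of all tested genes.

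Of 19 interferon genes themselves only the keratinocyte interferon IFNK had a row under the symbol searched. It had 5.07, 11.1 and 5.02 normalized counts in the high-NFMP steers and 9.57, 16.7 and 23.2 in the low-NFMP steers, overlapping, with a log2FC of -1.22 (SE 0.60, adjusted p = 0.468 by edgeR). It passed the p and fold change rule with the label number as a term, with library totals alone, with limma, and without steer 10-8 or 3-1. All 9 receptor and kinase genes were tested and 0 were called, and the interferon lambda receptor IFNLR1, at 59.7 ± 36.1 (SD, n = 3) against 29.5 ± 23.4 (SD, n = 3), passed the rule with the label number as a term and without steer 10-9 or 3-1. JAK1, the most counted, was at 1594 ± 138 (SD, n = 3) against 1558 ± 160 (SD, n = 3). The receptor subunits IFNAR1 and IFNAR2 had means of 12.3 against 16.6 and 54.8 against 49.5.

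Among the STAT and IRF factors other than those above, 10 of 12 were tested and 0 called, with log2FC values between -0.92 and 0.56. The corepressor IRF2BP2, the most counted of the list, was at 2601 ± 342 (SD, n = 3) against 2223 ± 781 (SD, n = 3).

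Of the nucleic acid sensors and adaptors, which detect viral RNA or DNA, 10 of 18 with a row were tested and 0 called. The adaptor MAVS, the most counted, was at 532.3 ± 108 (SD, n = 3) against 730.1 ± 138 (SD, n = 3), a log2FC of -0.46 (SE 0.21, adjusted p = 0.437 by edgeR). The 8 untested sensors, among them CGAS, TLR7, TLR8 and TLR9, had at most 11 reads in a library.

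Of the 52 other interferon-stimulated effectors with a row, 42 were tested and 0 were called. Their log2FC values ran from -0.83 (IFIT2) to 1.26 (IFIT3), 27 above 0 and 15 below, with a median of 0.13. An unadjusted p below 0.05 was reached by 3 of them, CMPK2, LGALS3BP and SHISA5, all with higher values in the high-NFMP group, a share of the 42 below the 11.5% of all tested genes. LGALS3BP, a secreted galectin-binding glycoprotein, was named for that reason and was at 242.8 ± 50.4 (SD, n = 3) against 128.0 ± 15 (SD, n = 3), a log2FC of 0.92 (SE 0.24, adjusted p = 0.115 by edgeR). LGALS3BP passed the p and fold change rule with the label number as a term and without steer 10-9, and IFIT3 with age as a term and without steer 3-8 or 3-1. IFI27L2 passed it with age as a term and without steer 3-8 or 10-8, SLFN11 with no filter and without steer 3-1, and HERC5, which is listed as an ISG15 ligase, without steer 3-8. SHISA5, the most counted of the list, was at 1496 ± 309 against 1101 ± 147. Several strongly inducible effectors were near 0, with at most 2 reads of OAS1X, 1 of OAS1Z, 1 of OASL and 5 of ISG20 in a library.

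The enzymes that attach and remove ISG15 were followed in 6 genes with a row, of which 5 were tested and 0 called. The ligase ARIH1, the most counted, was at 1732 ± 264 (SD, n = 3) against 2198 ± 313 (SD, n = 3). USP18, which strips ISG15 from its targets and is itself induced by interferon, had 4 reads in steer 10-8, 1 in steer 10-9 and 0 in the other 4.

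All 12 feedback inhibitors were tested, and 1, SOCS3, was called (8.33%, against 3.9% of all tested genes). An unadjusted p below 0.05 by edgeR was reached by 4 of the 12 and by 11.5% of all tested genes. The 4 are named for that reason, SOCS3, PIAS1 and PTPN1 with lower and OTUD5 with higher values in the high-NFMP group. SOCS3 blocks cytokine receptors that signal through JAK kinases. It was at 92.2, 43.3 and 52.2 normalized counts in the high-NFMP steers and at 197.1, 173.0 and 70.7 in the low-NFMP steers. Steer 10-16 lay below steer 3-8, so the groups overlapped. The log2FC was -1.23 (SE 0.39, unadjusted p = 0.00785 and adjusted p = 0.238 by edgeR). It was no longer called without steer 3-1 (-0.96) or with the label number as a term (-0.80). In the fit with that term its label difference was 1.17 (SE 0.28, unadjusted p = 0.00121 and adjusted p = 0.548 by edgeR). This passed the p and fold change rule, as 1.54% of all tested genes did. The means were 154.1 in steers labelled 3 and 55.4 in those labelled 10, without overlap, as for 14.1% of all tested genes. These means mix label number and NFMP group. FOXO3, the most counted of this list, was at 3184 ± 507 (SD, n = 3) against 3181 ± 1020 (SD, n = 3).

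Of the genes of the interferon gamma response and antigen presentation, 25 of 31 with a row were tested, 20 with a log2FC above 0 and 5 below, and the median was 0.40. Over all tested genes 48.1% were below 0 and the median was 0.02. By the p and fold change rule 1 of the 25 was higher and 1 lower (8%, against 3.9% of all tested genes). GBP4, an interferon-induced guanylate binding protein, was at 252.3, 136.7 and 194.6 normalized counts in the high-NFMP steers and at 98.6, 82.4 and 59.6 in the low-NFMP steers, without overlap. Its log2FC was 1.28 (SE 0.29, unadjusted p = 0.000545 and adjusted p = 0.0651 by edgeR), and it stayed past the p and fold change rule in all 14 alternative fits, at values from 1.044 to 1.504. Reads of GBP4 and its near relatives may be shared. NLRC5, the activator of class I genes, was lower by the same rule, at 64.9, 73.3 and 49.1 against 231.6, 79.6 and 75.7 normalized counts. Its log2FC of -1.05 (SE 0.41, adjusted p = 0.354 by edgeR) was -0.32 without steer 3-1 and -0.23 with age as a term, steer 3-1 being the oldest at 37.8 months. It also lost its call without steer 3-8 (-1.08, unadjusted p = 0.0668 by edgeR) and without steer 10-9 (-0.88), with the label number as a term (-0.79) and with quantile normalization and limma (-0.89).

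The class I gene JSP.1, the most counted of this list, ran from 177.8 in steer 10-8 to 9499 in steer 10-16, and class I genes are alike in sequence and differ between animals. The class II invariant chain CD74 had an unadjusted p of 0.0353 by edgeR and was highest in steer 10-8, at 980.1 normalized counts against 246.9 to 526.5 in the other 5, as were BOLA-DRA (444.5 against 152.1 to 252.6) and BOLA-DRB3 (1175 against 208.6 to 553.4). These 3 class II genes were picked out once their values were known. The inducible chemokine CXCL10 had 18 reads in steer 10-8, 10 in 3-3, 3 in 3-8 and 0 in the other 3.

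**Figure D4:**
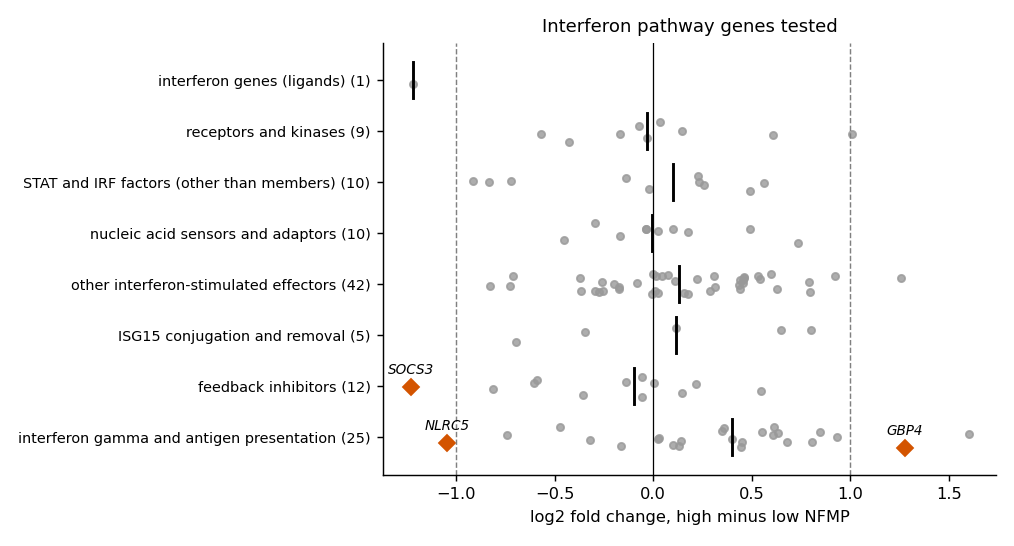
Log2 fold change (x axis, high minus low NFMP) of the 114 tested pathway genes in 8 lists (rows, number tested in parentheses). Grey points are single genes, orange diamonds are genes past the p and fold change rule and black bars are list medians. SOCS3 and NLRC5 lie below -1 and GBP4 above 1, and the effectors lie on both sides of 0.

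In whole muscle, a change in the number of cells of a type and a change in RNA per cell cannot be told apart. Many of these genes are readily induced in immune cells. Of 11 leukocyte markers 6 were tested, and 1, ITGAM, was called, lower at 15.2 ± 6.21 (SD, n = 3) against 32.3 ± 8.75 (SD, n = 3) normalized counts, a log2FC of -1.08 (adjusted p = 0.404 by edgeR). That is 16.7% of the 6, and 3.9% of all tested genes were called. Of the 6, 3 had a log2FC above 0 and 3 below, with CSF1R at 0.73 and CD14 at 0.57, neither called. The groups did not overlap for 3 of the 6, CSF1R and CD14 upward and ITGAM downward, and for 17.1% of all tested genes. The leukocyte markers summed to between 463.4 and 665.8 normalized counts in the high-NFMP steers and between 400.8 and 703.3 in the low-NFMP steers, with CD4 and MS4A1 at 0 in some libraries and at most 7 and 4 reads in the others. Of the plasmacytoid dendritic cell markers, TLR9 had at most 2 reads and TLR7 at most 9, and the 3 tested had log2FC values above 0, at 0.24 for TCF4, 0.48 for IL3RA and 0.71 for SPIB (unadjusted p = 0.0437 and adjusted p = 0.42 by edgeR), with none called. The markers summed to 3447 to 4167 normalized counts in high-NFMP and 3015 to 3306 in low-NFMP steers, most of it TCF4, which many cell types express. All 6 adipocyte markers had a log2FC above 0 (median 0.62), and ADIPOQ (0.63, unadjusted p = 0.0141 and adjusted p = 0.291 by edgeR) and CIDEC (0.89, unadjusted p = 0.00615 and adjusted p = 0.214 by edgeR) did not overlap between the groups. These are 2 of the 6, beside 17.1% of all tested genes. Adipocyte markers summed to 3284 to 9179 in the high-NFMP and 3053 to 4316 in the low-NFMP steers, endothelial markers to 933.5 to 1429 and 956.1 to 1246, and fibroblast markers to 11770 to 14560 and 9060 to 11980. Of the 4 fibroblast markers 3 had a log2FC above 0, and DCN was the most counted. PDGFRA was at -0.51 (unadjusted p = 0.0391 and adjusted p = 0.408 by edgeR), without overlap of the groups. None of the adipocyte, endothelial or fibroblast markers was called, and the part of any of these cells in the values of the 9 genes was not tested.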

How the data were processed

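LT muscle RNA of 6 steers was sequenced by the authors after 3′ mRNA library preparation, and raw read counts per gene symbol were deposited. The methods of the study name Tophat2 with HTSeq in one place and Bowtie2 with unique and multiple alignments in another, and the submitters' processing notes name Bowtie2 and bedtools. The sources used here do not settle which of these made the counts, or whether strand was used. Each library is 1 steer, so p-values measure the spread between steers. The 176 repeated symbols were kept as separate rows, and a list gene with several rows is given by its most counted row.

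Testing used edgeR 4.0.16 under R 4.3.3. The default filter (minimum count 10, minimum total 15) kept 15039 of 23015 rows, and at least 99.849% of the reads of a library. TMM factors lay between 0.9155 and 1.083. Dispersions and the quasi-likelihood test were robust, and p-values were adjusted by Benjamini-Hochberg over all tested genes. Standard errors came from the log2 fold change and the F statistic, and 95% intervals from these and the degrees of freedom of the test. Poisson intervals and the limit of 3 reads for a count of 0 cover counting error only, as reads carry no molecular identifiers.

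The 9 genes, the pathway lists and the cell type markers were chosen with earlier results of these data known. The genes named are the 9, list genes past either rule, the most counted tested gene of each pathway list, the 5 closest in profile overall and within the lists, and genes that overlap one of the 9. Others are said to be named after their values were seen, as were IFIT2 and IFIT3, the extremes of their list, and the receptor genes, the cell type markers given singly, IFI44L and the rare genes given by read counts. Gene order came from the RefSeq table of ARS-UCD2.0, which is not the assembly named by the study, so no coordinates are given. The values of 1 gene of the pathway lists are not reported here. Alternatives were no filter, 10 counts in every library, size factors of DESeq2 (RLE), library totals alone, DESeq2 1.42.0, quantile normalization of log2(count + 1) with limma 3.58.1, a term for the label number or for age, and leaving out each steer.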

Additional observations from a re-analysis of the deposited data

How the results depend on the processing

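Of 69 values of the 5 tested genes under the alternatives, 58 kept their direction and their side of the p and fold change rule, 7 changed sign and 4, all of RSAD2, crossed the rule. STAT2 was at -0.019 with no filter, -0.037 with library totals alone, -0.006 with quantile normalization and limma, and between -0.36 and 0.40 with a steer left out. IFI6 lay between -0.071 and 0.571 with a steer left out. The number of the 9 genes called was 1 with no filter and 1 with limma, and 0 to 1 with a steer left out (RSAD2 each time). At an adjusted p below 0.05 it was 0 in every alternative. Of the pathway genes, 6 passed the p and fold change rule with no filter (CXCL9 and GBP6 among them) and 3 to 8 with a steer left out, the 8 without 3-3, where IRF8, TMEM173, MYD88, CD74 and BOLA-DMB joined. At an adjusted p below 0.05 these were 2 with no filter, 3 with DESeq2, 1 with the label number as a term (GBP4) and 0 to 1 with a steer left out. That 1 was BOLA, of the antigen presentation list, without steer 10-9, where it also passed the p and fold change rule. With all 6 libraries BOLA was at 5321 ± 3480 (SD, n = 3) in the high-NFMP against 2790 ± 883 (SD, n = 3) normalized counts in the low-NFMP steers, and was not called. Over all genes 969 passed with no filter and 364 with 10 counts in every library, against 586. At an adjusted p below 0.05 there were 240 with no filter, 287 with DESeq2, 31 with age as a term, 28 to 82 with a steer left out (28 without 3-3, 33 without 3-8, 41 without 10-8, 63 without 10-16) and 0 with limma, which had 1657 at an unadjusted p below 0.05, against 103. The cause of these shifts was not tested, beyond the number of rows tested, 23015 with no filter and 13248 with 10 counts in every library. The labels pair no steers. The first label number, which occurs in both groups, was fitted as a term, with RSAD2 at -0.731, the calls of SOCS3 and NLRC5 lost and those of IFNK, IFNLR1 and LGALS3BP gained. Depth limits ISG15, MX2, IRF7 and IFI44, with at most 7, 5, 6 and 15 reads in a library.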

Other observations

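STAT3, JAK2 and PTPN1, from the pathway lists, were picked out for their low values in the high-NFMP steers, so their direction is no independent evidence. STAT3 had 364.8, 297.8 and 280.8 normalized counts in the high-NFMP steers and 616.2, 554.3 and 510.8 in the low-NFMP steers, without overlap. Its log2 fold change was -0.83 (standard error 0.19, unadjusted p = 0.000665 and adjusted p = 0.073 by edgeR), short of the fold change limit. The receptor-associated kinase JAK2 was at 260.8 ± 48.7 (SD, n = 3) against 386.5 ± 36.4 (SD, n = 3), with an adjusted p of 0.30 by edgeR, and the groups did not overlap. The phosphatase PTPN1, which acts on JAK2, was at 690.9 ± 97.9 (SD, n = 3) against 1051 ± 48.0 (SD, n = 3), with an adjusted p of 0.189 by edgeR, likewise without overlap. Groups without overlap were found for 17.1% of all tested genes. Of the other kinases and phosphatases in the lists, the log2 fold change was 0.03 for JAK1, 0.61 for TYK2, -0.14 for PTPN2, -0.355 for PTPN11 and -0.815 for PTPN6, none called, though PTPN6 passed the p and fold change rule without steer 10-8. STAT3, JAK2 and PTPN1 had no adjusted p below 0.05 by edgeR with the filter on low counts, but STAT3 had one by edgeR with no filter and by DESeq2.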
